A study of Mus musculus with 64 samples.

Results

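Itga4, Slc4a10, Gm13490, Gpd2 and Tank are 5 genes within 51 to 80 Mb of mouse chromosome 2 (GRCm38 coordinates). They are 5 of the 55401 genes counted, and all 5 were among the 15241 genes tested. Itga4, Slc4a10, Gm13490 and Gpd2 were chosen because their levels differed between genotypes in these same libraries, and Tank because it neighbors Slc4a10. Their genotype differences are therefore a description and were not used as evidence. Time of day, exercise, sex and the other genes of the interval were not used in the choice.

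Gastrocnemius RNA was sequenced from mice homozygous for floxed Hif1a, in which loxP sites flank exon 2. The HIF1α KO mice were also heterozygous for HSA-Cre, a Cre recombinase gene under the promoter of human α-skeletal actin, which is active in muscle fibers, so other cell types of the muscle keep Hif1a. The fl/fl littermates lacked HSA-Cre, so deletion of Hif1a, the Cre transgene and any DNA inherited with the transgene cannot be told apart here. Mice were 12 to 18 weeks old and had been bred for 2 to 9 generations on C57BL/6JBomTac. They ran on a treadmill for 60 min at 16 m/min and a 5% incline, or stayed on a mock treadmill, at zeitgeber time (ZT) 3, in the light phase, or ZT15, in the dark phase. Muscle was taken 3 h later. The 8 groups of genotype, time and treatment held 4 males and 4 females each. The exercised KO group at ZT3 kept 7 libraries because 1 library had only 382 counts. The remaining 63 libraries, 31 KO and 32 fl/fl, held 2359780 to 40377963 counts. Whole muscle was used, with all its cell types.

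Itga4 encodes the α4 integrin subunit, which pairs with β1 or β7 and binds VCAM-1 and fibronectin. It is best known from leukocytes and is also made by developing muscle. Slc4a10 encodes a sodium-dependent bicarbonate transporter that raises intracellular pH and is best known from neurons. Gm13490 is annotated as a long intergenic noncoding RNA. Gpd2 encodes the mitochondrial glycerol 3-phosphate dehydrogenase, which passes electrons from cytosolic NADH to the respiratory chain in the glycerol phosphate shuttle. Tank encodes an adaptor that binds TRAF proteins and the kinases TBK1 and IKKε in innate immune signaling.

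Along chromosome 2 the order was Gm13490, Gpd2, Tank, Slc4a10 and Itga4. Gm13490 lies at chr2:51656966-51732009 on the minus strand, with 7 exons in its longest transcript. The other 4 genes lie on the plus strand and encode proteins. By identifier they are ENSMUSG00000085014.1 (Gm13490), ENSMUSG00000026827.12 (Gpd2), ENSMUSG00000064289.15 (Tank), ENSMUSG00000026904.17 (Slc4a10) and ENSMUSG00000027009.18 (Itga4). Gpd2 spans chr2:57237635-57370719, Tank chr2:61578585-61654171, Slc4a10 chr2:62046462-62326730 and Itga4 chr2:79255426-79333123. The gaps between successive genes were 5.51 Mb, 4.21 Mb, 392 kb and 16.9 Mb, so only Tank and Slc4a10 are close together. Itga4 overlaps Cerkl on the opposite strand, and Gpd2 overlaps A930012O16Rik and Gm13535 on the opposite strand. The strand setting used in counting is not given in the sources used here, so reads of these overlapping genes may not be separated.

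Sequences upstream of the 5 genes were read because HIF1 binds DNA at a short core, ACGTG or GCGTG. RefSeq gave 10 start sites for the 5 genes, all on GRCm38.p6, and the 250 bases before each were searched on both strands. The core was found in 3 of the 10 windows: 1 Gpd2 window and 2 overlapping Tank windows that hold the same match. All 3 matches were ACGTG. It was not found in the windows of Gm13490, Slc4a10 or Itga4. Tank had the most windows and Gm13490 and Itga4 the fewest, so the chance of a match differed between genes. Of 32851 mouse promoters of the same length, 16.6% held ACGTG, 28.2% held GCGTG and 38.6% held either. These are matches of letters in a fixed window and do not show binding. For each gene 1 window is printed here, 5′ to 3′ on the strand of the gene. For Gpd2 and Tank it is a window with a match, and both genes also had windows without a match. No conclusion is drawn from which genes had a match. Capitals mark the core, which in Gpd2 reads CACGT because the match is on the opposite strand.
Gm13490, chr2:51732010-51732259, minus strand: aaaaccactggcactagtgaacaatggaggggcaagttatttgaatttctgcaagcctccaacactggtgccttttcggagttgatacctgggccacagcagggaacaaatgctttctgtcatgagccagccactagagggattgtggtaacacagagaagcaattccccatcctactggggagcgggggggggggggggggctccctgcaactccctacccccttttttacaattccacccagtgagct
Slc4a10, chr2:62046265-62046514, plus strand: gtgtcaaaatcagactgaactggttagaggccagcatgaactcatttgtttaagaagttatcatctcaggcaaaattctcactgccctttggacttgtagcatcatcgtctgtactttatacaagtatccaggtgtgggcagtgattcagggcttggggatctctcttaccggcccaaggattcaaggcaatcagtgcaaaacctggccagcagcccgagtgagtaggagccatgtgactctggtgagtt
Itga4, chr2:79255176-79255425, plus strand: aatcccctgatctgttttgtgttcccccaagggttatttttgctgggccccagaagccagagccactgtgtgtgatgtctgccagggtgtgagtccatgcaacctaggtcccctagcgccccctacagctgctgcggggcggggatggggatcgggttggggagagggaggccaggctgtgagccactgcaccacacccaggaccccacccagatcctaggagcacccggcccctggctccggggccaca
Gpd2, chr2:57238132-57238381, plus strand: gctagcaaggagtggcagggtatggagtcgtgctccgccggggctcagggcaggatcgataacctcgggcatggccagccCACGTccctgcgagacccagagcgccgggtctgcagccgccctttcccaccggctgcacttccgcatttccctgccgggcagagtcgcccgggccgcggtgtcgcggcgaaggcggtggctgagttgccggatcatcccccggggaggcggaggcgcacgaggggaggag
Tank, chr2:61592902-61593151, plus strand: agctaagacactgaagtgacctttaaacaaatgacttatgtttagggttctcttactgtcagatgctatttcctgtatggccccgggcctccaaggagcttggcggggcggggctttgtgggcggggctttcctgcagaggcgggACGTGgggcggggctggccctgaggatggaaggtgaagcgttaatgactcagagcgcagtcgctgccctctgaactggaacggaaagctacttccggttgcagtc

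In 5 libraries, gene expression went against the genotype label. Hif1a itself did not check the genotype labels: its gene-level count was 28.8 to 49.7 CPM (counts per 1000000 counts of the library, with TMM-scaled library sizes) in KO and 25.9 to 57.3 CPM in fl/fl libraries, a log2 difference of 0.00 (SE 0.05). Reads from exons outside the deleted exon and from cells other than fibers count toward it. Each library was therefore compared with the medians of both genotypes in its sex, at the 20 genes of other chromosomes with the smallest p for genotype, on 10 chromosomes. In 58 libraries, 0 to 5 of the 20 genes lay nearer the other genotype. In the other 5 libraries 15 to 19 did. They are the libraries labelled fl/fl of mouse 7 (ZT3 sedentary), mouse 8 and mouse 40 (ZT15 sedentary), and those labelled KO of mouse 43 (ZT15 sedentary) and mouse 9 (ZT15 exercised). Whether their labels are wrong was not tested, so groups follow the labels and fits are also given for the 58 libraries. Because the 5 were picked on genes that differed by genotype, wider genotype differences without them are no added evidence. The sex labels held in all 63 libraries, as Xist was 134 to 298 CPM in females and 0 to 1.23 CPM in males.

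Itga4, Slc4a10 and Gm13490 lay on the other genotype's side in these same libraries. Of the 3 genes, 3 lay nearer the other genotype in mice 7, 8, 40 and 43, and 2 in mouse 9. Among the 58 remaining libraries, 49 had 0 of the 3 genes on the other side, 9 had 1, and none had 2 or more. The library of mouse 7, labelled fl/fl, held 8.56 CPM of Itga4, 0.157 CPM of Slc4a10 and 0.236 CPM of Gm13490. The library of mouse 43, labelled KO, held 14.5, 1.87 and 3.89 CPM of the same genes. In mouse 9, labelled KO, Itga4 was 17.1 CPM and Gm13490 1.85 CPM, while Slc4a10 was 0.0905 CPM, a level seen in KO females.

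**Figure D1:**
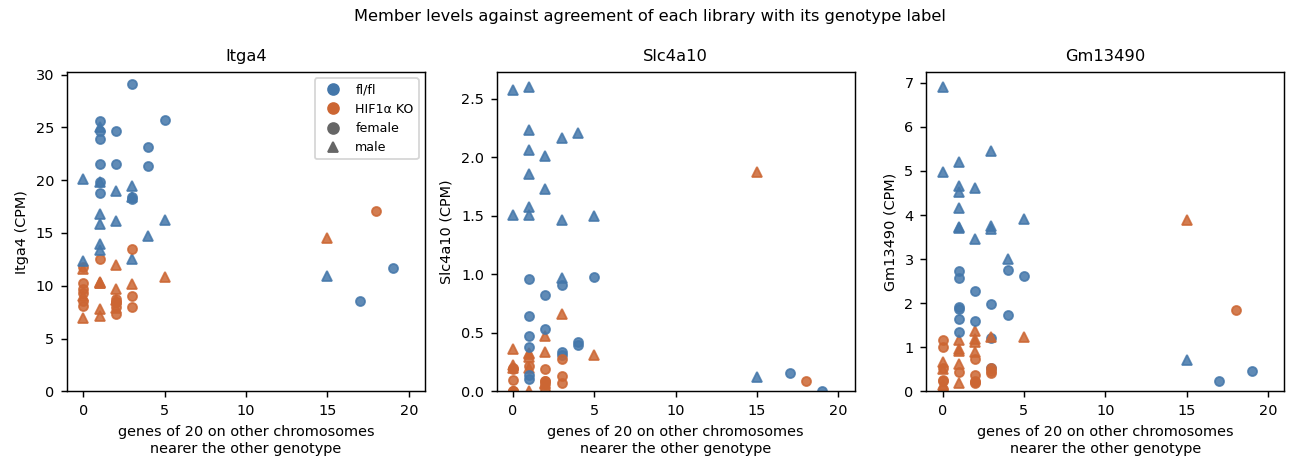
Level of Itga4, Slc4a10 and Gm13490 in CPM (y axis, linear) against the number of 20 genes on other chromosomes that lay nearer the other genotype (x axis), 1 point per library, color for genotype label and shape for sex. The 58 libraries at 0 to 5 genes and the 5 libraries at 15 to 19 genes form separate groups along the x axis.

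Itga4 was lower in KO muscle in each of the 4 combinations of time and treatment. At ZT3 sedentary, its lowest, median and highest levels were 8.56, 18.2 and 25.7 CPM in fl/fl and 8.01, 10.2 and 12.0 CPM in KO mice. At ZT3 after exercise they were 15.8, 19.4 and 25.04 CPM in fl/fl and 7.32, 8.45 and 10.3 CPM in KO mice. These exercised ZT3 groups did not overlap, and neither held a library set apart above. At ZT15 sedentary the levels were 10.9, 18.3 and 29.1 CPM in fl/fl and 8.50, 9.77 and 14.5 CPM in KO mice. At ZT15 after exercise they were 12.3, 18.3 and 25.6 CPM in fl/fl and 6.97, 9.19 and 17.1 CPM in KO mice. The medians of the 4 fl/fl groups, 18.2 to 19.4 CPM, all lay above those of the 4 KO groups, 8.45 to 10.2 CPM, and groups of the same genotype overlapped. The fitted log2 difference, KO minus fl/fl, was -0.87 (SE 0.17) at ZT3 sedentary, -1.25 (SE 0.18) at ZT3 exercised, -0.85 (SE 0.17) at ZT15 sedentary and -0.76 (SE 0.17) at ZT15 exercised. Averaged over the 4 combinations it was -0.93 (SE 0.09, n = 31 KO and 32 fl/fl) and -1.06 (SE 0.07, n = 29 and 29) without the 5 libraries. Within the 58 libraries, Itga4 separated the genotypes in both sexes. In females KO levels reached 13.5 CPM and fl/fl levels began at 18.2 CPM, and in males KO levels reached 12.0 CPM and fl/fl levels began at 12.3 CPM. Itga4 was chosen for its genotype difference, and the 5 libraries were picked on genes that differed by genotype. Separation of genotypes, here and for Slc4a10 and Gm13490 below, is therefore a description. The share of all tested genes that separate in the same way is not given here.

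Markers of leukocytes, from which α4 integrin is best known, and of other cell types were measured beside it. Of 8 leukocyte markers, including Ptprc, 0 were called by genotype at adjusted p under 0.1 in edgeR or in DESeq2, with 0 at an unadjusted p under 0.05 in either over the 63 libraries. Their summed level was 22.4 to 93.3 CPM (median 36.6) in KO and 25.7 to 112 CPM (median 37.4) in fl/fl libraries. The 8 lymphocyte markers summed to at most 0.830 CPM in KO and 0.862 CPM in fl/fl libraries, and none had enough counts to be tested. Of 8 macrophage markers 1 was called, Cd163, at a log2 difference of -0.27 (SE 0.09). Endothelial cell, adipocyte, erythroid and myofiber markers had 0 called in edgeR (1 of 7, 0 of 6, 0 of 5 and 1 of 8 at an unadjusted p under 0.05) and 0 in DESeq2. Among 7 fibro-adipogenic progenitor markers Pdgfra was called at -0.12 (SE 0.04), and among 7 satellite cell markers Myf5 at 0.35 (SE 0.13). DESeq2 called 2 of the fibro-adipogenic progenitor markers, both lower, and 1 of the satellite cell markers. In edgeR, 3 and 2 markers of these lists had an unadjusted p under 0.05, the same over 58 libraries. Over 58 libraries Cd163 and Pdgfra were not called, and the satellite cell marker Cdh15 was called at -0.19 (SE 0.07). Of 7 nerve and Schwann cell markers, 3 were called, all lower, over 63 and over 58 libraries, as described with Slc4a10 below. The 8 myofiber markers, all detected, summed to 83302 to 155576 CPM. In bulk tissue, fewer cells of a type and less RNA per cell cannot be told apart.

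Slc4a10 was measured at the limit of these libraries. KO libraries held 0 to 15 reads of it (median 2) and fl/fl libraries 0 to 89 (median 12.5), and 5 KO libraries and 1 fl/fl library held 0. At ZT3 sedentary the lowest, median and highest levels were 0.157, 1.24 and 2.597 CPM in fl/fl and 0, 0.194 and 0.660 CPM in KO mice. At ZT3 after exercise they were 0.106, 1.07 and 2.17 CPM in fl/fl and 0, 0.0872 and 0.474 CPM in KO mice. Fl/fl medians were higher than KO medians here, but single libraries of both genotypes overlapped. At ZT15 sedentary the levels were 0, 0.719 and 2.23 CPM in fl/fl and 0, 0.196 and 1.87 CPM in KO mice. At ZT15 after exercise they were 0.143, 0.695 and 2.21 CPM in fl/fl and 0, 0.174 and 0.364 CPM in KO mice. The averaged log2 difference was -2.31 (SE 0.24) over 63 libraries and -2.60 (SE 0.20) over 58. The largest shift came at ZT15 sedentary, from -1.83 (SE 0.47) to -2.85 (SE 0.42), the combination that lost 3 of the 5 libraries. In the 58 libraries, KO males (0 to 0.660 CPM) did not overlap fl/fl males (0.966 to 2.597 CPM), whereas KO females (0 to 0.277 CPM) overlapped fl/fl females (0.106 to 0.979 CPM).

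Slc4a10 is best known from neurons, and nerve and Schwann cell markers were also lower in KO muscle. Of 7 such markers, 3 were called, all lower, among them Pmp22 at -0.45 (SE 0.12) and Mbp at -0.44 (SE 0.13), both components of peripheral myelin. The summed level of the 7 was 49.4 to 215 CPM (median 84.5) in KO and 57.2 to 240 CPM (median 101) in fl/fl libraries, and no marker was at 0 throughout. Their part in the Slc4a10 difference was not tested.

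Gm13490 had the second largest genotype difference of the set. At ZT3 sedentary its lowest, median and highest levels were 0.236, 3.26 and 6.90 CPM in fl/fl and 0.252, 1.15 and 1.23 CPM in KO mice. At ZT3 after exercise they were 1.88, 3.10 and 5.45 CPM in fl/fl and 0.218, 0.614 and 1.36 CPM in KO mice. The exercised ZT3 groups did not overlap, as for Itga4, and the sedentary ones overlapped through the single library of mouse 7. At ZT15 sedentary the levels were 0.458, 1.78 and 4.52 CPM in fl/fl and 0.0508, 0.217 and 3.89 CPM in KO mice. At ZT15 after exercise they were 0.526, 2.86 and 4.98 CPM in fl/fl and 0.416, 0.710 and 1.85 CPM in KO mice. The averaged log2 difference was -1.94 (SE 0.21) over 63 libraries and -2.42 (SE 0.15) over 58. At ZT15 sedentary it went from -2.03 (SE 0.46) to -3.18 (SE 0.34), and at ZT15 after exercise from -1.41 (SE 0.42) to -2.03 (SE 0.30).

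Gpd2 was slightly higher in KO muscle and its genotypes overlapped broadly. It held 177 to 309 CPM (median 237) in KO and 146 to 291 CPM (median 205) in fl/fl libraries. At ZT3 sedentary the lowest, median and highest levels were 222, 266 and 309 CPM in KO and 146, 222 and 254 CPM in fl/fl mice. At ZT15 after exercise they were 177, 197 and 257 CPM in KO and 167, 184 and 291 CPM in fl/fl mice, the smallest gap of the 4 combinations. The averaged log2 difference was 0.19 (SE 0.04) over 63 libraries and 0.20 (SE 0.04) over 58, a ratio of 1.14 over the 63.

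Tank, 392 kb before Slc4a10, did not share its difference. Tank held 13.4 to 23.8 CPM (median 19.04) in KO and 11.4 to 26.97 CPM (median 18.7) in fl/fl libraries, and both ranges overlapped in every combination. Its averaged log2 difference was 0.01 (95% interval -0.11 to 0.13) over 63 libraries and 0.02 (-0.10 to 0.14) over 58. Of the 5 genes, 4 were called by genotype at adjusted p under 0.1, against 8.26% of all tested genes (7.7% over 58 libraries, with the same 4 members). Within single combinations 4, 3, 2 and 2 of the 5 were called at ZT3 sedentary, ZT3 exercised, ZT15 sedentary and ZT15 exercised, against 0.4%, 1.43%, 0.0459% and 0.4% of all genes. Over 58 libraries the counts were 4, 3, 3 and 3, against 0.719%, 1.44%, 0.454% and 0.817%, with Slc4a10 gained at ZT15 sedentary and Gm13490 at ZT15 exercised. The choice of members set these counts.

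**Figure D2:**
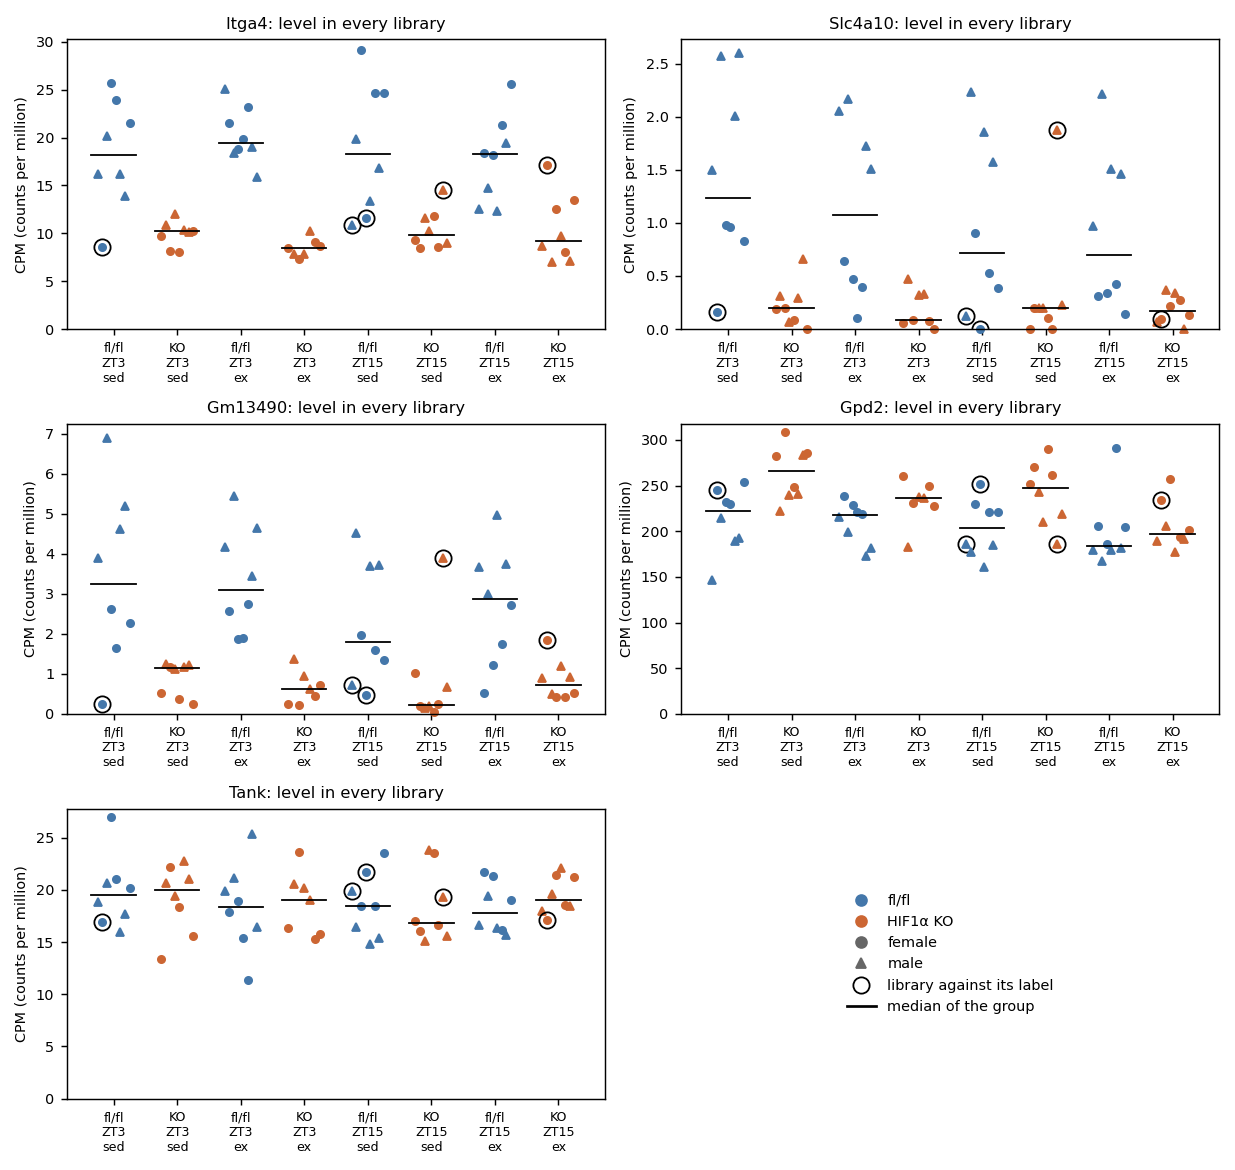
Level of each of the 5 genes in CPM (y axis, linear from 0) in every library of the 8 groups (x axis; sed, sedentary; ex, exercised), with color for genotype, shape for sex, rings on the 5 libraries set apart and a line at each group's median. Itga4 medians are 18.2 to 19.4 CPM in fl/fl and 8.45 to 10.2 CPM in KO groups, while Tank medians lie between 16.8 and 20.02 CPM in both.

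Per kb of exon the 5 genes spanned a wide range. Mean levels were 33.8 CPM per kb for Gpd2, 3.09 for Tank, 1.03 for Itga4, 0.782 for Gm13490 and 0.106 for Slc4a10. The 2 genes with the largest genotype differences were thus the 2 least abundant.

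Sex was not used in the choice of genes, so its differences were tested, with a limit for Slc4a10. Slc4a10 had a median of 28.5 reads in fl/fl males, 6.5 in fl/fl females, 6 in KO males and 2 in KO females. It thus passed the count filter (minimum count 10) mainly through fl/fl males, and its p for sex is not independent of that filter. The sex difference of Slc4a10 is therefore given as a description, without p. Males held more Slc4a10 and Gm13490 and less Gpd2 than females. The fitted log2 difference, male minus female, was 1.72 for Slc4a10 (SE 0.24). It was 1.17 for Gm13490 (SE 0.21, edgeR adjusted p = 1.4e-05) and -0.28 for Gpd2 (SE 0.04, adjusted p = 6.2e-08). Over 58 libraries these were 1.60 (SE 0.20), 1.17 (SE 0.14) and -0.25 (SE 0.04). Itga4 was near the threshold at -0.20 (SE 0.09, adjusted p = 0.099), and over 58 libraries it was -0.21 (SE 0.07, adjusted p = 0.022). Tank showed 0.00 (95% interval -0.11 to 0.12). With Slc4a10 left aside, Gm13490, Gpd2 and Itga4 were called for sex and Tank was not, against 25.1% of all tested genes called. The same held over 58 libraries, against 23.3%.

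Slc4a10 in fl/fl mice had a median of 1.79 CPM in males (0.120 to 2.597) and 0.408 CPM in females (0 to 0.979). In KO mice its median was 0.308 CPM in males (0 to 1.87) and 0.0897 CPM in females (0 to 0.277). Of 16 fl/fl males, 14 lay above the highest fl/fl female. Gm13490 in fl/fl mice had a median of 4.03 CPM in males (0.717 to 6.90) and 1.81 CPM in females (0.236 to 2.75). In KO mice its median was 0.952 CPM in males (0.1495 to 3.89) and 0.424 CPM in females (0.0508 to 1.85). Of 16 fl/fl males 15 lay above every fl/fl female, the exception being mouse 8, whose library is among the 5 set apart. In the 58 libraries all 15 fl/fl males did. For Slc4a10 and Gm13490 these counts are a description. The share of all tested genes whose sexes separate in this way is not given here. The order of medians was the same for both genes: fl/fl male, fl/fl female, KO male, KO female.

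Gpd2 went the other way by sex. Its median was 182 CPM in fl/fl males (146 to 216) and 229 CPM in fl/fl females (186 to 291). In KO mice it was 219 CPM in males (177 to 283) and 254 CPM in females (193 to 309). Itga4 had medians of 16.2 CPM in fl/fl males and 21.5 CPM in fl/fl females, but 10.2 CPM in KO males and 8.88 CPM in KO females. Its genotype difference was -0.78 (SE 0.11) in males and -1.09 (SE 0.11) in females. The difference between these, tested as a genotype by sex term, was 0.30 (95% interval -0.01 to 0.62, adjusted p = 0.48). Over 58 libraries it was 0.39 (0.16 to 0.62, adjusted p = 0.40).

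None of the 5 genes passed the genotype by sex test in edgeR or DESeq2 (unadjusted p under 0.05 in 0 of 5 by either, and in 1 of 5 by edgeR over 58 libraries). For Slc4a10 the term was -0.32 (95% interval -1.62 to 0.97) and for Gm13490 -0.27 (-1.19 to 0.65), and both intervals include changes of either sign. Over all genes 6 passed, or 0.0394%, and 0.11% over 58 libraries. Cell type markers also differed by sex: 5 of 6 adipocyte markers, 5 of 7 fibro-adipogenic progenitor markers and 5 of 7 nerve and Schwann cell markers were lower in males. The nerve markers summed to 49.4 to 179 CPM (median 82.0) in males and 63.1 to 240 CPM (median 97.5) in females. Of 8 myofiber markers, 3 were higher and 2 lower in males, and 3 of 5 erythroid markers were higher. The part of any of these cell types in the sex differences was not tested.

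**Figure D3:**
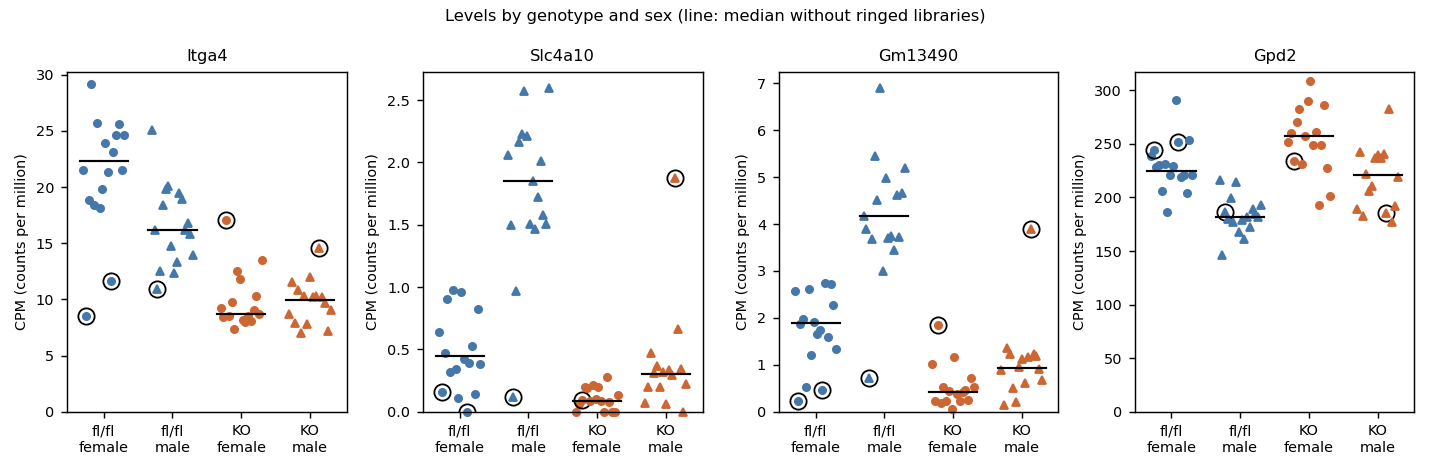
Level of Itga4, Slc4a10, Gm13490 and Gpd2 in CPM (y axis, linear from 0) by genotype and sex (x axis), 1 point per library, with rings on the 5 libraries set apart and a line at the median of the unringed libraries. For Gm13490, the unringed fl/fl males begin at 3.00 CPM, above the highest fl/fl female at 2.75 CPM. The share of all tested genes that separate by sex in this way is not given.

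Time of day called 1 of the 5 genes. Averaged over genotype and treatment, Gpd2 was called lower at ZT15 than at ZT3, at a log2 difference of -0.11 (SE 0.04, edgeR adjusted p = 0.095), and the other 4 genes were not called, against 8.02% of all tested genes. The Gpd2 call was lost over 58 libraries, at -0.10 (SE 0.04, adjusted p = 0.15). Gm13490 was -0.24 (SE 0.22, adjusted p = 0.61) over 63 libraries and -0.56 (SE 0.15, adjusted p = 0.016) over 58, where 7.64% of genes were called. The latter value rested most on sedentary KO mice. Without mouse 43 they held 0.0508 to 1.01 CPM (median 0.197) at ZT15 and 0.252 to 1.23 CPM (median 1.15) at ZT3. In that combination the log2 difference was -1.43 (SE 0.34, adjusted p = 0.033, with 0.538% of genes called) over 58 libraries and -0.60 (SE 0.48) over 63. In the ZT15 group the counts behind those levels were 1 to 18 reads. Itga4 differed by 0.06 (95% interval -0.11 to 0.23) and Slc4a10 by -0.21 (-0.71 to 0.29).

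Exercise, 3 h after the run, called 0 of the 5 genes in edgeR, against 2.84% of all tested genes. Gpd2 came nearest at -0.12 (SE 0.04, adjusted p = 0.11), the only gene of the 5 with an unadjusted p under 0.05, and DESeq2 called it. Over 58 libraries 0 of the 5 were called, against 2.83%, with 2 at an unadjusted p under 0.05. In KO mice Gpd2 was -0.20 (SE 0.08) at ZT3 and -0.22 (SE 0.08) at ZT15 after exercise. In fl/fl mice it was -0.01 (SE 0.08) at ZT3 and -0.03 (SE 0.08) at ZT15. The genotype by exercise term for Gpd2 was -0.19 (95% interval -0.34 to -0.04), in a test that called 0 of 15241 genes and had 306 genes at an unadjusted p under 0.05. The genotype by time term called 0 genes as well, with 648 at an unadjusted p under 0.05, and DESeq2 called 0 genes for either term. For Itga4 the genotype by time term was 0.26 (-0.08 to 0.59) and the genotype by exercise term -0.15 (-0.49 to 0.19). For Slc4a10 they were 0.44 (-0.57 to 1.45) and -0.13 (-1.06 to 0.81), intervals that include changes of either sign.

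**Figure D4:**
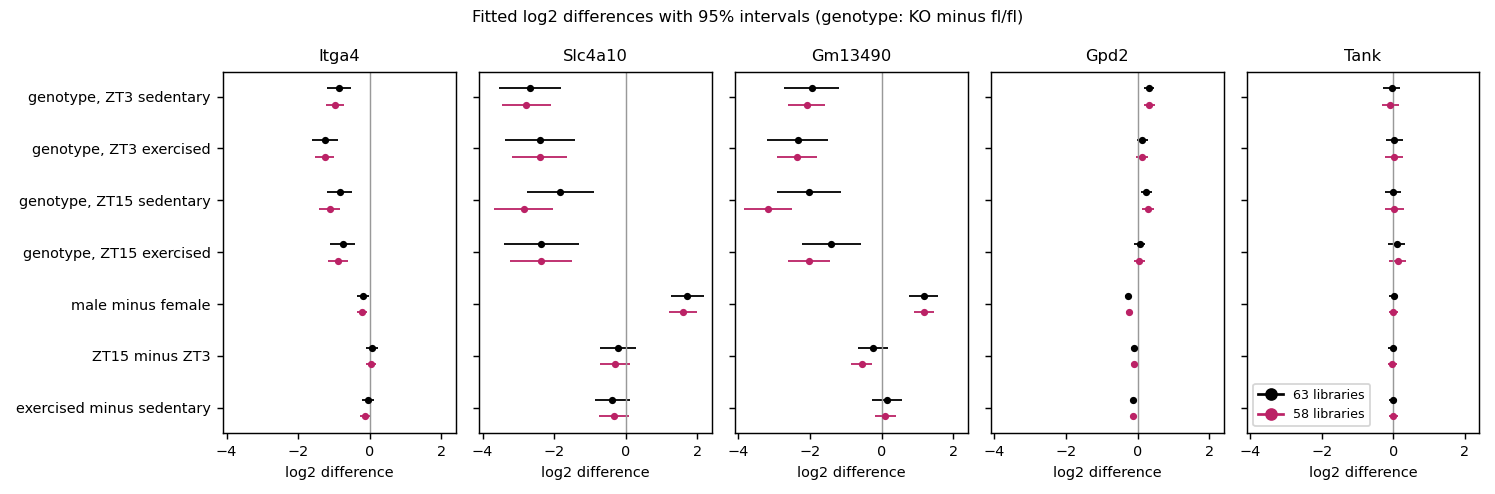
Fitted log2 differences of the 5 genes (x axis, log2 scale, same range in each panel) for genotype in each combination, sex, time of day and exercise (y axis), with 95% intervals, over 63 libraries in black and 58 in pink. Intervals for Slc4a10 and Gm13490 lie below 0 for genotype and above 0 for male minus female, and Tank stays close to 0 in each row.

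The genes around the 5 were examined with the 5 left out. Of 119 other tested genes between 51 and 80 Mb, 10 were called by genotype (8 lower and 2 higher), or 8.40%, close to the 8.26% over all genes. Over all genes 546 were called lower and 713 higher. Over 58 libraries the count was 10 of 121 (9 lower and 1 higher), against 581 lower and 607 higher over all genes. The median absolute log2 difference was 0.087 in the interval and 0.089 over all genes. The signed median was -0.031 in the interval and -0.0028 over all genes. Whether the direction in the interval departs from that of all genes was not tested. Among the nearest 3 tested genes on each side of each member, 25 genes that are no member, 1 was called, Itprid2 next to Itga4, at -0.21 (SE 0.06). Over 58 libraries 2 were called, Itprid2 at -0.25 (SE 0.06) and Galnt5, next to Gpd2, at -0.48 (SE 0.16). The immediate neighbors of Slc4a10 were Psmd14 at 0.13 (SE 0.06) and Dpp4, 3.34 kb away, at -0.05 (SE 0.07), and neither was called. On either side of Gm13490, Rnd3 was 0.00 and Rbm43 -0.03, neither called. Nr4a2, before Gpd2, was 0.59 (adjusted p = 0.16).

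The largest difference among the other genes of the interval was that of Gca, which encodes the calcium-binding protein grancalcin. It lies at chr2:62664285-62694109, beyond Slc4a10. Gca held 0.264 to 3.74 CPM (median 1.13) in KO and 0.733 to 2.96 CPM (median 2.10) in fl/fl libraries, with overlap. Its log2 difference was -0.83 (SE 0.13, edgeR adjusted p = 6.0e-06), and -0.999 (SE 0.12) over 58 libraries. Its neighbor Kcnh7, a voltage-gated potassium channel gene on the opposite strand that overlaps its end, was -0.52 (SE 0.15, adjusted p = 0.024), and their reads may not be separated. The others called lower were Itprid2, Baz2b, B3galt1, Gpr155, Klhl23 and Scn2a, at -0.15 to -0.39, and those called higher were Hoxd10 at 0.25 and Slc25a12 at 0.09. Over 58 libraries Slc25a12 was no longer called and Galnt5, at -0.48 (SE 0.16), was. Of 40 tested genes between 60 and 70 Mb, Slc4a10 and Tank included, 7 were called and all 7 were lower, or 17.5%. Slc4a10 is 1 of the 7 and was chosen for its genotype difference. This count and its direction therefore rest in part on the choice of members. Other 10 Mb stretches of chromosome 2 ranged from 2.44% to 20.7%.

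**Figure D5:**
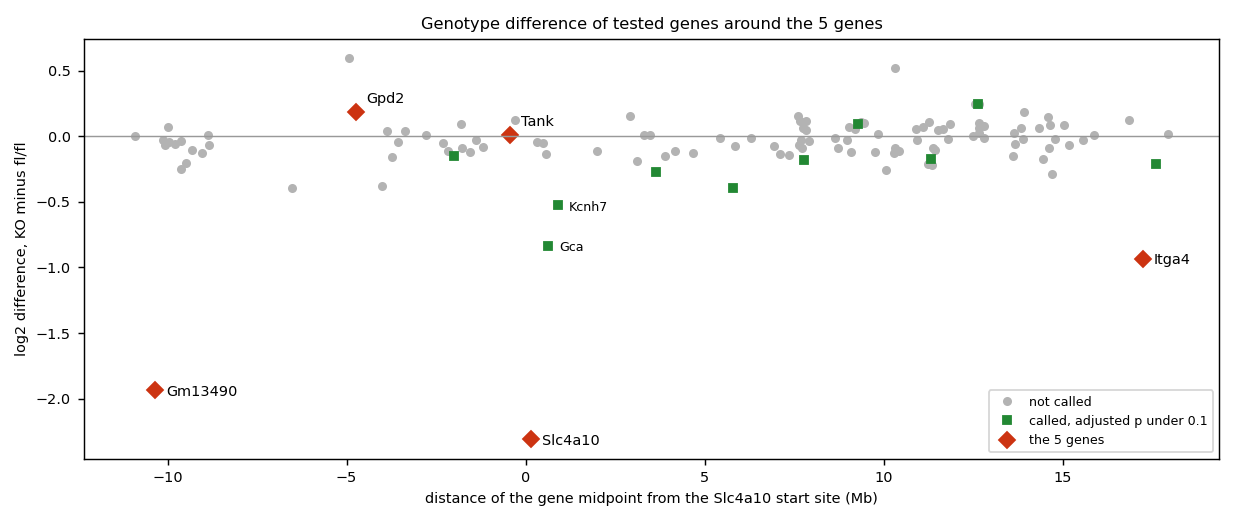
Log2 difference by genotype, KO minus fl/fl averaged (y axis), of the 124 tested genes of the interval against the distance of each gene's midpoint from the Slc4a10 start site in Mb (x axis), with the 5 genes as diamonds and other called genes as squares. Slc4a10 and Gm13490 lie at -2.31 and -1.94, and 10 of the 119 other genes were called.

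Genes with related roles were counted from 4 lists, to be read against the 8.26% of all genes called by genotype. DESeq2 called 3, 4, 2 and 0 genes of these lists in the order given. Of 35 tested integrins, α4 ligands and adhesion partners, 2 were called by genotype, both lower: Itgb1, the β1 partner of α4, at -0.13 (SE 0.03) and the integrin activator Fermt2 at -0.11 (SE 0.04). The list's median was -0.06, and the median of all tested genes -0.0028. The ligand Vcam1 was -0.09 (SE 0.09) and the partner Itgb7 0.06 (SE 0.14), neither called. Of 18 bicarbonate transporters and carbonic anhydrases, the muscle carbonic anhydrase Car3 at 0.58 (SE 0.07) and Car7 at 0.44 (SE 0.14) were higher and Car9, a known HIF1 target, was lower at -0.53 (SE 0.18). The median of that list was -0.02. Of 16 genes of the NADH shuttles and glycerol phosphate, 2 were called higher, the mitochondrial carriers Slc25a11 at 0.21 (SE 0.07) and Slc25a12, and neither was called over 58 libraries. Gpd1, the cytosolic partner of Gpd2, was 0.11 (SE 0.05, adjusted p = 0.17), and the list's median was 0.07. Of 25 genes around TANK, TBK1 and NF-κB, 0 were called by edgeR or DESeq2, 1 had an unadjusted p under 0.05 in either, and the median was 0.01.

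Among mice of the same group and sex, the 3 lower genes varied together over 63 libraries but not over 58. With group and sex fitted out over 63 libraries, Pearson's r of log2 CPM was 0.41 for Itga4 with Slc4a10, 0.48 for Itga4 with Gm13490 and 0.52 for Slc4a10 with Gm13490. Over 58 libraries the same values were -0.05, -0.09 and 0.08. Points share a library, and most Slc4a10 values rest on few reads.

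Genes most like each member were sought in the same way over the 58 libraries. Gpd2 was closest to Phkb, a phosphorylase kinase subunit gene, at r = 0.66, followed by Gm12224 at 0.59 and Pgm1, a phosphoglucomutase gene, at 0.58. Tank was closest to Tm9sf3 and Dynlt3, both at 0.77, and Atad1 at 0.76. Itga4 was closest to Naa15 at 0.55, D1Ertd622e at 0.54 and F5 at 0.51. Slc4a10 was closest to Sms, spermine synthase, at 0.56, Vmn2r57 at 0.52 and the Sms pseudogene Sms-ps at 0.51, whose reads may be shared with Sms. Gm13490 was closest to Gm25694 at 0.55, Ubn2 at 0.49 and Gfpt1 at 0.48. None of these genes is on chromosome 2. Over all 63 libraries the closest genes were Fgd4 for Itga4 (0.65), Dct for Slc4a10 (0.60), Ctnna3 for Gm13490 (0.64), Prkab2 for Gpd2 (0.58) and Dynlt3 for Tank (0.78), also on other chromosomes. Without group and sex fitted out, over 63 libraries, Slc4a10 and Gm13490 had r = 0.81, which includes the genotype and sex differences given above. On that scale Itga4 was most like Narf at 0.82, Plin3 at -0.80 and 2610002M06Rik at 0.78, all on other chromosomes.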

How the data were processed

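The authors prepared poly-A selected, stranded libraries. The submitters' processing notes name STAR, featureCounts and the mm10 build. Versions, annotation release and strand setting are not given in the sources used here. The deposited values are raw counts for 55401 genes in 64 libraries, grouped by the labels. The library of 382 counts was left out, as by the authors. Of the gene identifiers, 55141 matched GENCODE M21 (GRCm38), 54349 with the same version, which gave symbols and positions. Upstream sequences came from RefSeq.

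Counts were filtered with filterByExpr (minimum count 10), TMM-normalized and fitted over 63 libraries with group and sex as terms by the robust quasi-likelihood test of edgeR 4.0.16 (R 4.3.3). Genotype by sex was fitted with 1 term per group and sex. Genes were called at a Benjamini-Hochberg adjusted p under 0.1 over all genes tested, 15241 over 63 libraries and 15428 over 58. Genotype, time and exercise averages weight the combinations equally, and 95% intervals are for single genes. Likeness is Pearson's r of log2 CPM (prior count 2). Alternatives were DESeq2 1.42.0, RLE size factors, other filters, other sets of libraries, no sex term and blocks of 16 mouse numbers. The members, gene lists and tests were chosen with earlier results of these data known, and the 5 libraries were identified after seeing the data. Marker lists were of leukocytes, macrophages, lymphocytes, endothelial, satellite, nerve and Schwann, erythroid and fibro-adipogenic progenitor cells, adipocytes and myofibers.

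No pair of libraries within a group agreed within sampling noise (217 pairs, lowest chi-square per degree of freedom 2.67). Labels do not say whether littermates shared groups, so p-values measure the spread between these mice. Depth, 2359780 to 40377963 counts, limits Slc4a10 most, with 0 to 15 reads in KO libraries. On data simulated with known genotype changes, 83.6% of 67 genes changed by 0.5 on the log2 scale were called, 98.5% of 67 changed by 1, all 66 changed by 2, and 24 of 14982 unchanged genes. The changed genes were drawn without the least abundant tested genes. Simulated means did not vary by time, exercise or sex, and no simulated library went against its label. These shares therefore need not hold for Slc4a10 or for libraries like the 5 set apart. Named genes were the 5 members, the nearest 3 tested genes on each side of each, up to 10 called genes of the interval, the 3 most like each member, and up to 4 called genes per list. Vcam1, Itgb7, Gpd1 and single markers were named after their values were seen. The value of 1 marker gene is not reported here.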

Additional observations from a re-analysis of the deposited data

Results flagged for a closer look

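In 5 of 40 combinations of gene and group, 1 library stood apart from the rest by Dixon's criterion, which marks about 1 in 20 groups by chance. In sedentary KO mice at ZT15, Slc4a10 was 1.87 CPM in mouse 43 and 0 to 0.225 CPM in the other 7. In sedentary fl/fl mice at ZT3, mouse 7 held 0.157 CPM of Slc4a10 against 0.825 to 2.597 CPM, and 0.236 CPM of Gm13490 against 1.65 to 6.90 CPM. Both libraries are among the 5 that went against their genotype label. Gpd2 was 183 CPM in mouse 20, an exercised KO mouse at ZT3, and 227 to 261 CPM in the other 6. It was 291 CPM in mouse 39, an exercised fl/fl mouse at ZT15, and 167 to 206 CPM in the other 7. Neither of these libraries went against its label.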

How the results depend on the processing

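No paired analysis was possible because each mouse number occurs once and is not shared between groups. Genotype differences of Itga4, Slc4a10, Gm13490 and Gpd2 kept their direction and call in the average under every alternative that could test them, and requiring 10 counts in every library removed Slc4a10 and Gm13490. Tank, not called, changed sign in the average to -0.0023 with 10 counts in every library, -0.0052 without libraries under 5000000 counts and -0.037 with mouse-number blocks. At ZT3 exercised it became -0.032 without those libraries and -0.14 with blocks, and at ZT15 sedentary 0.029 without the 5 libraries.

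Members called at ZT15 sedentary were 2, but 1 without the sex term, 0 without the filter, 0 without libraries under 5000000 counts, 1 at adjusted p under 0.05, and 3 with mouse-number blocks or without the 5 libraries. With only the compared groups in the fit, Itga4 (adjusted p = 0.26) and Gm13490 (adjusted p = 0.31) were not called there, and Slc4a10 had too few counts. At ZT15 exercised they were 2, then 0 without the sex term and 3 without the 5 libraries. At ZT3 sedentary the 4 became 3, with Gpd2 lost, without the sex term, without the filter, with all 64 libraries and with only the compared groups. At ZT3 exercised the 3 became 2 without the sex term (Slc4a10, adjusted p = 0.10), and DESeq2 gave no adjusted p for Slc4a10 and Gm13490. For time of day the count of 1 became 0 with RLE size factors, without the sex term, without the filter, with all 64 libraries, without libraries under 5000000 counts and at adjusted p under 0.05. For exercise the count of 0 became 1 (Gpd2) with DESeq2, RLE size factors or mouse-number blocks.

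The sex difference of Itga4 was no longer called without the filter (-0.20, adjusted p = 0.18), without libraries under 5000000 counts (-0.20, adjusted p = 0.125) or at adjusted p under 0.05 (-0.20). Tank's, near 0 and not called, became -0.0027 with DESeq2, -0.00076 with RLE, -0.014 with 10 counts in every library, -0.0021 with 64 libraries, -0.0077 without libraries under 5000000 counts and -0.0076 without the 5. Without the 5 libraries the genotype by time term became -0.021 for Slc4a10 and -0.38 for Gm13490, and the genotype by exercise term 0.42 for Slc4a10. The latter was -0.054 with DESeq2 and -0.028 without the sex term for Gm13490. None of these terms was called. The 10 called genes of the interval (of 119 tested, 8.40%) became 4 of 283 without the filter (1.41%), 5 of 119 at adjusted p under 0.05 (4.20%), 17 of 152 between 46 and 85 Mb (11.2%) and 3 of 25 within 1 Mb of a member (12%). Except where the set of genes or the threshold changed, the cause was not tested.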
